A study of Mus musculus with 16 samples.

Results

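The genes described here, all but a pseudogene, encode sensors and effectors of inflammasomes. They were measured by RNA sequencing in mouse bone marrow-derived macrophages and chosen by symbol, 10 of 54532 gene identifiers. They comprise the sensors Nlrp1a, Nlrp1b, Nlrp3, Nlrc4 and Aim2, and Nlrp1c-ps, which is annotated as a pseudogene. The others are the adaptor Pycard, the caspases Casp1 and Casp4, and the pore-forming protein Gsdmd. Nlrp1a and Nlrp1c-ps were picked because they were nearly absent in the libraries labelled JMJD3 cKO, so their values there are given as a description without a test. All 10 genes passed the filter on low counts in each fit.

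Marrow cells had been kept for 7 days in 20 ng/mL of M-CSF, which turns them into macrophages, before 24 h of culture. The first set of libraries held wild-type cells without conditioned medium (WT naive, n = 3), wild-type cells in 70% medium conditioned by YUMM1.7 mouse melanoma cells (WT TCM, n = 3), and TRAP1 knockout cells in the same medium (TRAP1 KO TCM, n = 4). The second set held wild-type cells of the JMJD3 line (JMJD3 WT TCM, n = 3) and cells labelled JMJD3 conditional knockout (JMJD3 cKO TCM, n = 3), all in conditioned medium. TRAP1 is a mitochondrial chaperone, and JMJD3, encoded by Kdm6b, is a histone H3 lysine demethylase. The sources used here give neither the Cre driver, the deleted exons, the strain and age of the mice, nor whether replicates came from separate animals. P-values therefore reflect the spread among these libraries, and that spread may be technical.

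Inflammasomes are cytosolic complexes that macrophages assemble when a sensor meets a microbial product or a sign of damage. The sensor recruits the adaptor ASC (encoded by Pycard), which gathers pro-caspase-1. Active caspase-1 matures interleukin-1β and interleukin-18 and cuts gasdermin D, whose released fragment opens pores in the plasma membrane and causes the lytic death called pyroptosis. Caspase-11 (encoded by Casp4 in the mouse) binds bacterial lipopolysaccharide directly and cuts gasdermin D too. Transcript levels do not measure assembly, cleavage or secretion.

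The 3 Nlrp1 genes lie side by side on the minus strand of chromosome 11 (GRCm38). Nlrp1a (ENSMUSG00000069830) spans 71092236 to 71144704, Nlrp1b (ENSMUSG00000070390) spans 71153102 to 71230733, and Nlrp1c-ps (ENSMUSG00000092528), annotated as a transcribed unprocessed pseudogene, spans 71242430 to 71285232. The bases in front of Nlrp1a and of the upstream annotated start of Nlrp1b are shown because the promoters of these neighbours resemble each other while their transcript levels parted in the libraries labelled JMJD3 cKO. Each is 250 bases from RefSeq on GRCm38.p6, read on the minus strand 5′ to 3′, with a match to the PU.1 motif in capitals.
Nlrp1a, chr11:71144705-71144954: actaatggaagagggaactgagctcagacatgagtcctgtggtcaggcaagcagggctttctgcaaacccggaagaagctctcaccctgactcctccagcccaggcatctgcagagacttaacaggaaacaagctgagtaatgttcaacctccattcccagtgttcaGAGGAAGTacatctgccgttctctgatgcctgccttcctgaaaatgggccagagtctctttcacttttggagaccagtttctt
Nlrp1b, chr11:71230734-71230983: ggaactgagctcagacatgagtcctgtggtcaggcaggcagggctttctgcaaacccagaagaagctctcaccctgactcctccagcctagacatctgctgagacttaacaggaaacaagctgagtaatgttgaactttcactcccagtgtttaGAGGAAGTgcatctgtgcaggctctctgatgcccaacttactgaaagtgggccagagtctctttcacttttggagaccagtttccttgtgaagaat
In a local alignment, 217 of 235 aligned bases were identical (92.3%), with 3 gap bases. The PU.1 match, GAGGAAGT, began 83 bases before the Nlrp1a start and 96 bases before the Nlrp1b start. PU.1 is a transcription factor that myeloid cells depend on, and its match, searched on both strands, occurred in 3.20% of 32851 RefSeq promoter windows of 300 bases. Of the 10 genes, 8 had an entry among these windows, and Aim2 and Pycard also held the PU.1 letters. The window of the downstream annotated start of Nlrp1b aligned with Nlrp1a over 12 bases only and held no PU.1 match. Which start was used in these cells was not examined. Each motif was searched as a fixed pattern of letters, so sites spelled otherwise would be missed. Other motifs searched did not occur in the windows of the 8 genes with an entry. They were the interferon-stimulated response element (GAAA, then NN, then GAAA, found in 3.44% of all windows), NF-κB (GGGAN followed by TTTCC, 0.411%) and AP-1 (TGANTCA, 7.81%).

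Depth was 15361604 to 22426820 counts per library. Levels are in CPM, counts scaled by TMM to a common library total, as mean ± SD over libraries. Trap1 was at 61.4 to 71.6 CPM in WT TCM, and the 4 TRAP1 KO TCM libraries were at 0 to 0.0535 CPM. Kdm6b was not lower in the libraries labelled JMJD3 cKO (24.5 to 26.3 CPM) than in JMJD3 WT TCM (23.4 to 26.8 CPM), but a count summed over all exons tests no partial deletion. Macrophage markers were present in every group (8 of 8 detected), with a summed level of 15800 to 16000 CPM in the naive libraries. With conditioned medium the sum was 26400 to 26800 CPM in wild type, 25500 to 25800 CPM without TRAP1, 16100 to 16500 CPM in the JMJD3 controls and 12800 to 13200 CPM in the libraries labelled JMJD3 cKO. The 8 neutrophil markers summed to 50.2 to 54.1, 4.09 to 5.57, 3.51 to 4.98, 21.2 to 25.3 and 39.2 to 40.9 CPM in the same order, with Mpo at 0 counts in WT TCM. The 6 fibroblast markers summed to 13.3 to 14.4 CPM in WT naive but 0.166 to 0.404 CPM in WT TCM, where Col3a1, Dcn and Pdgfra were at 0 counts. Their sum was 4.71 to 6.96 CPM in TRAP1 KO TCM and at most 1.93 CPM in the JMJD3 groups. The 6 dendritic cell markers summed to 8.04 to 10.5 CPM in JMJD3 WT TCM (Cd209a at 0 counts) and 4.02 to 5.44 in JMJD3 cKO TCM, and to at most 2.28 in the first set. T and NK, B cell, melanoma, erythroid, and mast cell or basophil markers each summed to at most 2.50 CPM in any library. Sums weigh the highest genes most, such as Lyz2 among the macrophage markers (4582 CPM in JMJD3 cKO TCM to 17940 CPM in WT TCM). In bulk RNA, fewer cells of a type and less RNA per cell cannot be told apart, and the part of these marker shifts in the results was not tested.

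Per kb of annotated exon, Casp1 and Gsdmd had the highest levels of the 10 genes in each of the 5 groups. The length was that of all annotated exons of a gene together, 1497 bases for Casp1, 2377 for Gsdmd and 3800 for Pycard. Where the transcripts in these cells are shorter, a gene is set too low. Which transcripts were present was not examined, so the order between genes holds for the annotated lengths only. In WT TCM, Casp1 was at 56.5 ± 1.94 CPM per kb and Gsdmd at 43.7 ± 0.743, followed by Nlrp3 at 31.5 ± 0.754 and Pycard at 16.6 ± 0.631. Nlrp1a, the lowest of the 10 genes in WT TCM, was at 3.87 ± 0.396 CPM per kb, with Nlrc4 next at 4.66 ± 0.0749. In WT naive, Nlrp3 was at 12.8 ± 0.215 CPM per kb, within the spread of Nlrp1b (13.0 ± 0.247) and close to Aim2 (12.3 ± 0.386). In JMJD3 WT TCM, Casp1 reached 138 ± 3.03 CPM per kb, Gsdmd 78.4 ± 3.68 and Casp4 35.2 ± 0.659, each above its level in every group of the first set. Little of the transcript sequence was shared with other genes. Of the 50-base windows of the annotated transcripts, 2.07% of Nlrp1a, 1.45% of Nlrp1b and 0.792% of Nlrp1c-ps occurred in another gene, always another Nlrp1 gene. Pycard shared 11.7%, nearly all with Gm45205 on the opposite strand, which was at most at 0.214 CPM.

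**Figure D1:**
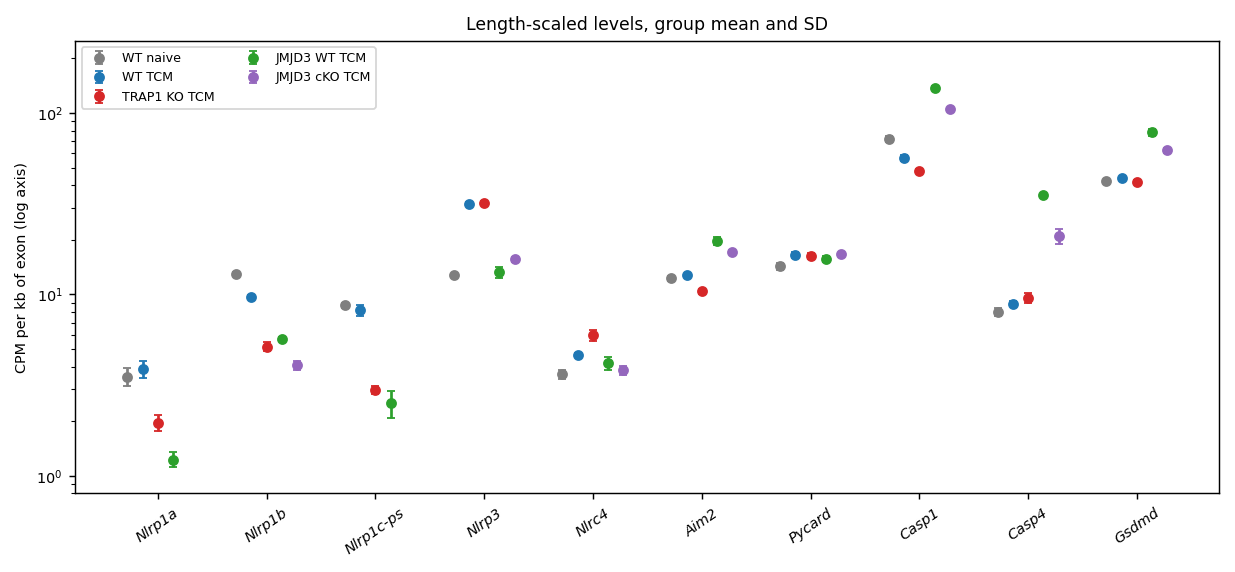
Group mean (points) and SD (bars) of the 10 genes in CPM per kb of exon on a log axis, 5 groups by colour. Nlrp1a and Nlrp1c-ps in JMJD3 cKO TCM, at 0.0116 and 0 CPM per kb, lie below the axis and are not drawn, and the highest points are Casp1 in the JMJD3 groups.

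**Figure D2:**
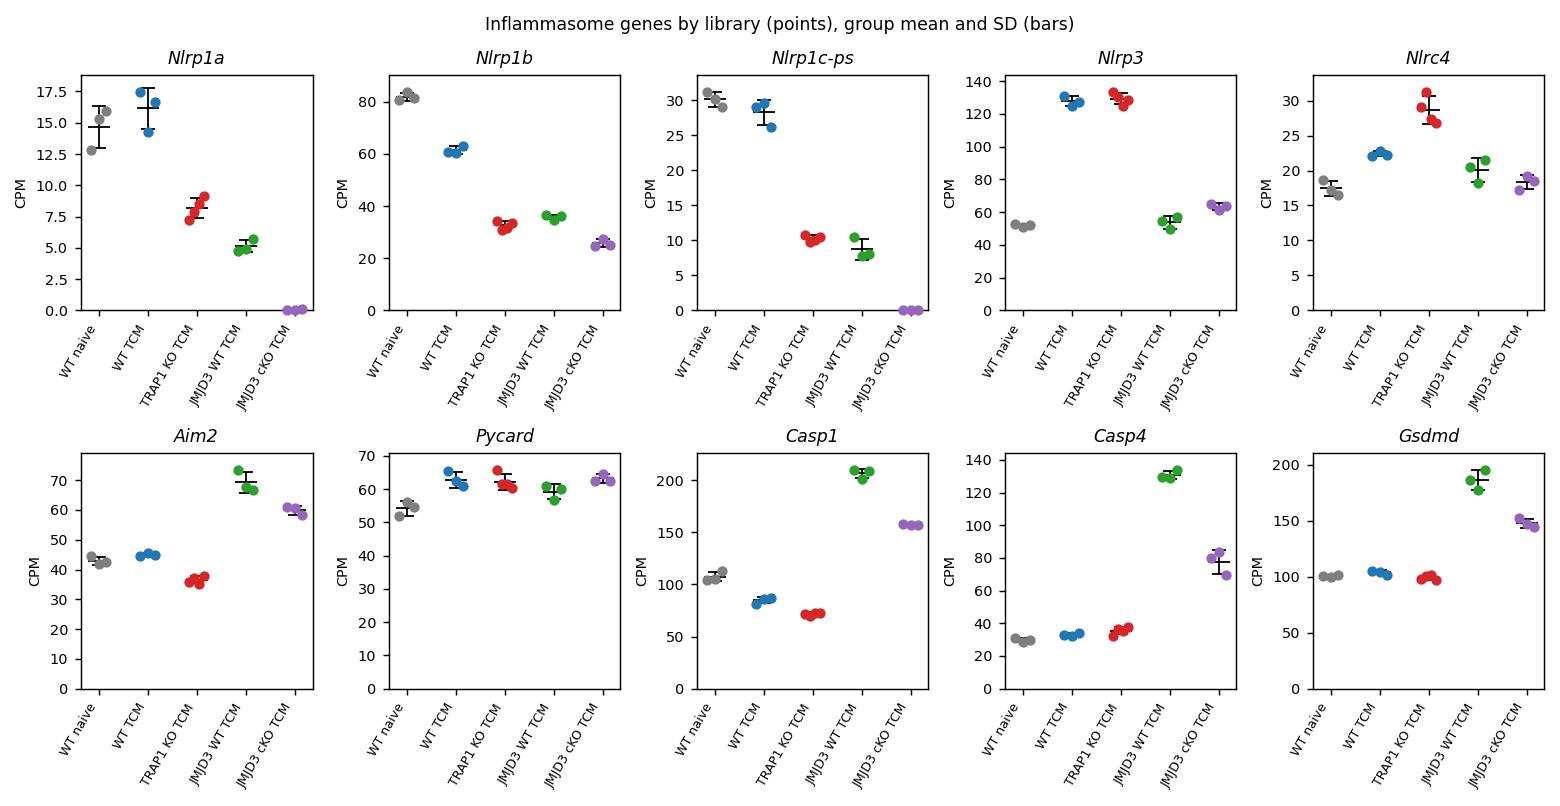
CPM of each gene (vertical axes, starting at 0) in the 16 libraries (points) by group, with the group mean and SD as bars. Nlrp1a and Nlrp1c-ps drop to the axis in JMJD3 cKO TCM, Nlrp3 is high in WT TCM and TRAP1 KO TCM, and Casp1, Casp4 and Gsdmd are high in the JMJD3 groups.

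The response of the pathway to melanoma medium in wild-type cells was read from WT TCM against WT naive. Nlrp3, the sensor of ion efflux, crystals and other signs of cell stress, rose 2.46-fold and led the response. Nlrc4, which detects flagellin and secretion-system proteins through NAIP partners, and the adaptor Pycard rose modestly, while Nlrp1b and Casp1 fell. A gene was called higher or lower at an adjusted p under 0.05 in edgeR's quasi-likelihood test over all genes, with fold changes on the log2 scale. Among the 10 genes, 4 rose and 2 fell, and of all 14078 genes tested 42.2% were called (21.6% higher, 20.6% lower), which is the background for this count. The median log2 fold change of the 10 genes was 0.10, against -0.01 for all genes.

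Nlrp3 (ENSMUSG00000032691, chromosome 11, 59541568 to 59566956) was at 52.5, 50.9 and 52.3 CPM in WT naive and at 131, 125 and 127 CPM in WT TCM (log2 fold change 1.30, SE 0.04, adjusted p = 3.15e-52). The WT TCM libraries were all far above the naive ones, with a spread of a few CPM in either group. Nlrc4 was at 18.6, 17.2 and 16.5 CPM without the medium and at 22.1, 22.8 and 22.3 CPM with it (0.36, SE 0.07, adjusted p = 2.14e-05). Pycard moved from 52.0, 56.3 and 54.6 CPM to 65.5, 62.3 and 60.9 CPM (0.21, SE 0.04, adjusted p = 1.45e-05). In both genes the groups did not overlap, which held for 8 of the 10 genes, among them Aim2 and Gsdmd, which were not called. The share of all genes without overlap was not counted, so lack of overlap is given as a description only. Casp4 moved from 29.7 ± 1.42 to 33.1 ± 1.11 CPM (0.15, SE 0.06, adjusted p = 0.0334), a call that was lost with DESeq2 (adjusted p = 0.0654), without the filter (0.0707), and on leaving out WT TCM replicate 3 (0.128), WT naive replicate 2 (0.156) or WT naive replicate 3 (0.0795).

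Nlrp1b, the mouse sensor that anthrax lethal factor triggers by cleavage, was at 80.9, 83.7 and 81.3 CPM in WT naive and at 60.8, 60.4 and 63.1 CPM in WT TCM (-0.42, SE 0.04, adjusted p = 2.07e-15). Casp1, the protease at the end of the canonical pathway, went from 107 ± 4.49 to 84.6 ± 2.90 CPM (-0.35, SE 0.04, adjusted p = 1.53e-14). All WT TCM libraries lay below all naive ones in both genes. Nlrp1a, at 12.8, 15.3 and 15.9 CPM without the medium and 17.5, 14.3 and 16.7 CPM with it, did not pass the test (0.14, 95% interval -0.05 to 0.32, adjusted p = 0.237). Nlrp1c-ps (-0.09, adjusted p = 0.283), Aim2, the receptor of cytosolic DNA (0.07, adjusted p = 0.295), and Gsdmd (0.04, adjusted p = 0.299) did not pass it either. The 3 neighbouring Nlrp1 genes were therefore not called together here. The neutrophil and fibroblast marker sums were lower, and the macrophage sum higher, in WT TCM than in WT naive. Lyz2 (7978 to 17940 CPM) carried most of the higher macrophage sum. Of the 8 macrophage markers 5 were called higher and 3 lower (Adgre1, Cd68 and Fcgr1).

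Il1b, the cytokine that caspase-1 matures, was at 0.566 to 0.874 CPM in WT naive and 14.5 to 15.2 CPM in WT TCM (log2 fold change 4.43, adjusted p = 5.39e-45). Il18, the other substrate, was at 7.50 to 7.70 CPM and rose to 12.2 to 13.5 CPM (0.76, adjusted p = 4.62e-10). The inhibitors of both cytokines went the other way. Il18bp, which captures interleukin-18, fell from 104 to 54.8 CPM (-0.92), and Il1rn, which blocks the interleukin-1 receptor, fell from 174 to 110 CPM (-0.66). Il1a was low, at 0.444 to 0.908 CPM in both groups. In the list of 10 cytokine and receptor genes, 8 passed the filter, 2 rose and 3 fell, with a median log2 fold change of 0.01. The background for each list is again the 42.2% of all genes called (21.6% higher, 20.6% lower). Of 17 other sensors and sensor-associated genes 15 passed the filter, 4 rose and 9 fell (median -0.23). Mefv, which encodes the sensor pyrin, rose from 2.88 to 6.45 CPM (1.16), and Nod2, a receptor of bacterial muramyl dipeptide, rose from 11.6 to 16.2 CPM (0.48). The interferon-inducible GTPases Gbp2 (87.6 to 51.2 CPM, -0.77) and Gbp3 (32.8 to 19.7 CPM, -0.74) fell.

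Of the 10 other death effectors 5 rose and 2 fell (median 0.20), beside 42.2% of all genes called. Ninj1, which ruptures the membrane of dying cells, rose from 189 to 250 CPM (0.41) and Casp8 from 91.2 to 111 CPM (0.29). The necroptosis effector Mlkl (-0.23) and Gsdme, a gasdermin cut by caspase-3 (-0.19), fell. Of 19 regulators 10 rose and 5 fell (median 0.09). Txnip, a thioredoxin-binding protein that can associate with NLRP3, rose from 332 to 793 CPM (1.26), and the channel gene Panx1 from 7.36 to 10.3 CPM (0.49). Tnfaip3, which encodes the ubiquitin-editing enzyme A20, fell from 62.9 to 31.8 CPM (-0.98) and Nek7, an NLRP3 partner kinase, from 139 to 117 CPM (-0.26).

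**Figure D3:**
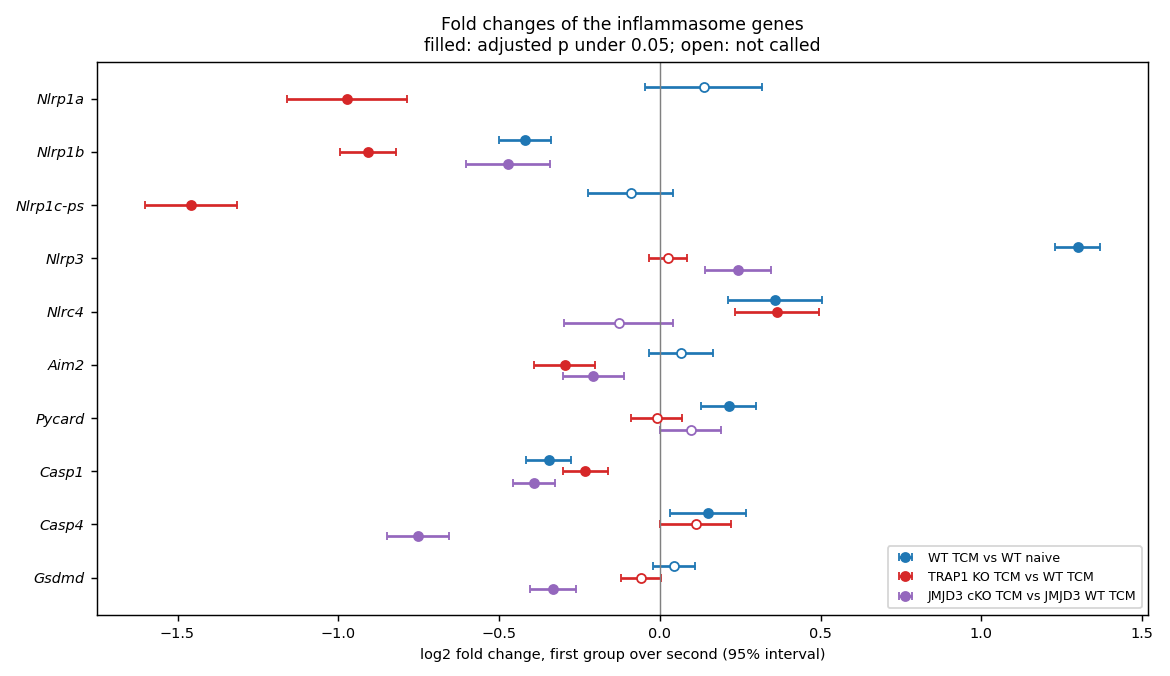
Log2 fold change (horizontal axis) of each gene with its 95% interval in 3 comparisons by colour, filled where the adjusted p was under 0.05. Nlrp1a and Nlrp1c-ps have no purple point because they were chosen from that comparison, Nlrp3 with conditioned medium lies farthest right, and the 3 Nlrp1 genes in the TRAP1 knockout lie farthest left.

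Cells lacking TRAP1 were set against wild-type cells in the same medium to see how the pathway differed without the chaperone. All 3 Nlrp1 genes fell, each by more than any of the other 7 genes changed in this comparison, and Nlrp3 did not pass the test. Aim2 and Casp1 fell by less, and Nlrc4 rose. In all 5 of the 10 genes fell and 1 rose, where 42.2% of the 14078 genes tested were called (21.0% lower, 21.2% higher). The median of the 10 genes was -0.14, and that of all genes 0.01. WT TCM is the control here and the treated group in the comparison with WT naive, so the values of both comparisons are not independent.

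Nlrp1a was at 17.5, 14.3 and 16.7 CPM in WT TCM and at 7.23, 7.84, 8.50 and 9.17 CPM in TRAP1 KO TCM (log2 fold change -0.97, SE 0.09, adjusted p = 2.01e-15). Nlrp1b was at 60.8, 60.4 and 63.1 CPM in WT TCM and at 34.4, 30.7, 31.6 and 33.6 CPM without TRAP1 (-0.91, SE 0.04, adjusted p = 2.29e-33). Nlrp1c-ps was at 29.1, 29.6 and 26.2 CPM in WT TCM and at 10.8, 9.75, 9.99 and 10.5 CPM without TRAP1 (-1.46, SE 0.07, adjusted p = 1.03e-32). In each of the 3 genes the 4 knockout libraries lay below the 3 wild-type ones with a wide gap. Between the Kdm6b and Nlrp1 loci and 1 Mb beyond them, 92 other genes were tested, of which 15 were higher and 25 lower in this comparison (43.5%). The total share was close to the 42.2% of all genes. More of the 92 were lower than higher, whereas all genes were nearly even (21.0% lower, 21.2% higher). This lean was not tested.

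Aim2 was at 45.1 ± 0.416 CPM in WT TCM and 36.5 ± 1.18 in TRAP1 KO TCM (-0.30, SE 0.05, adjusted p = 1.64e-07), and Casp1 at 84.6 ± 2.90 and 71.6 ± 1.46 CPM (-0.23, SE 0.04, adjusted p = 2.88e-08). Nlrc4 was at 22.1 to 22.8 CPM with TRAP1 and at 29.0, 31.2, 27.4 and 26.8 CPM without it (0.36, SE 0.07, adjusted p = 1.78e-06). None of these 3 genes had overlapping groups, but lack of overlap held for 7 of the 10 genes, among them Gsdmd, which was not called. The share of all genes without overlap was not counted in this comparison either, so the 7 are a description only. Nlrp3 was at 133, 130, 125 and 129 CPM in the knockout, inside and around the wild-type range, and its interval bounded the log2 difference between -0.03 and 0.09 (adjusted p = 0.527). Pycard (-0.01, 95% interval -0.09 to 0.07, adjusted p = 0.874), Gsdmd (-0.06, 95% interval -0.12 to 0.004, adjusted p = 0.13) and Casp4 (0.11, adjusted p = 0.0994) were not called. Without TRAP1 KO TCM replicate 1, Casp4 passed the test (adjusted p = 0.0266), which made 2 genes higher instead of 1.

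Il1b was at 14.5 to 15.2 CPM in WT TCM and 25.1 to 27.5 CPM in TRAP1 KO TCM (0.83, adjusted p = 7.12e-17), and Il18 did not pass the test (-0.10, adjusted p = 0.419). Il1a, at 0.444 to 0.908 and 0.761 to 1.82 CPM, passed it with overlapping groups (0.86, adjusted p = 0.039). Of the 8 cytokine and receptor genes that passed the filter 4 rose, among them Il1rn (110 to 138 CPM, 0.34), and 1 fell, Il18bp (54.8 to 37.3 CPM, -0.55). The background for each list is the 42.2% of all genes called (21.2% higher, 21.0% lower). The fibroblast marker sum was higher in these knockout libraries than in WT TCM, and the neutrophil sums of the groups overlapped. Among the 15 other sensors 3 rose and 8 fell (median -0.14). Mefv rose from 6.45 to 12.8 CPM (0.99) and Nod2 from 16.2 to 20.0 CPM (0.31). Nod1, a receptor of another peptidoglycan fragment, fell from 28.1 to 19.5 CPM (-0.52), and Zbp1, a sensor of Z-form nucleic acids, fell from 183 to 131 CPM (-0.47).

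Of the 10 other death effectors 3 rose and 2 fell (median 0.00), a share close to the 42.2% of all genes called. Ninj1 rose from 250 to 386 CPM (0.63) and the necroptosis kinase gene Ripk3 from 28.3 to 31.5 CPM (0.16). Its substrate Mlkl fell from 37.1 to 25.6 CPM (-0.53) and Gsdme from 21.4 to 18.4 CPM (-0.21). Of 19 regulators 6 rose and 4 fell (median 0.02). Txnip rose from 793 to 1136 CPM (0.53) and Tnfaip3 from 31.8 to 44.5 CPM (0.49). The deacetylase gene Sirt2 fell from 158 to 109 CPM (-0.53), and Ticam1, which encodes the Toll-like receptor adaptor TRIF, fell from 37.4 to 30.1 CPM (-0.31).

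JMJD3 cKO TCM was compared with JMJD3 WT TCM to see how the pathway differed in the libraries labelled as a conditional knockout of the demethylase, whose loss the Kdm6b counts do not show. The 2 outer members of the Nlrp1 cluster were nearly absent in the libraries labelled JMJD3 cKO, while Nlrp1b between them was still at 0.720 times its control level. Casp4, Casp1, Gsdmd and Aim2 fell, and Nlrp3 rose. Of the 8 genes not chosen for this comparison 5 fell and 1 rose, where 35.1% of the 13476 genes tested were called (17.8% lower, 17.3% higher). Their median was -0.27, against 0.01 for all genes.

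Nlrp1a was at 4.77, 4.92 and 5.68 CPM in JMJD3 WT TCM and at 0.0529, 0 and 0.0916 CPM in JMJD3 cKO TCM. These values are 237 counts against 3, a ratio of 102 with an exact 95% interval of 34.6 to 500.2 that covers counting error only and describes the counts for which the gene was chosen. Nlrp1c-ps was at 10.4, 7.70 and 7.98 CPM in JMJD3 WT TCM, 404 counts, and at 0 counts in all 3 libraries labelled JMJD3 cKO. At a 95% limit for counting error only, a count of 0 allows up to 3 counts in the 3 libraries together (0.0501 CPM). Against the 404 control counts, taken as they are, that limit is 174.6-fold lower. It too describes the counts for which the gene was chosen. Nlrp1b, which lies between these genes, was at 36.4, 34.7 and 36.2 CPM and at 24.7, 27.4 and 25.0 CPM (-0.47, SE 0.06, adjusted p = 8.62e-08). The Nlrp1b groups did not overlap, and for the outer genes the choice itself fixed the gap between the groups. The level that remained was 0 or a fraction of a CPM for the outer genes and 24.7 CPM or more for Nlrp1b.

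Kdm6b itself (69398508 to 69413675 on chromosome 11) starts 1.73 Mb from the Nlrp1a start, so the genotype at Kdm6b and the DNA around the linked Nlrp1 genes cannot be told apart in this comparison. In the 3.89 Mb from 1 Mb before Kdm6b to 1 Mb beyond Nlrp1c-ps, 92 other genes were tested, 16 higher and 21 lower (40.2%). Of these 3 changed at least 2-fold (3.26%), against 298 genes or 2.21% of all genes tested. Mgl2, a macrophage galactose lectin, went from 1.94 to 0.507 CPM (-1.94), Acap1 from 6.68 to 17.3 CPM (1.38) and Pimreg from 1.41 to 3.51 CPM (1.32). The 6 tested genes nearest to the cluster, Derl2, Mis12, Dhx33, C1qbp, Rpain and Nup88, start within 0.175 Mb of Nlrp1a and were between -0.22 (Rpain) and 0.48 (C1qbp). Nlrp3 lies on the same chromosome, 11.6 Mb from Nlrp1a.

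**Figure D4:**
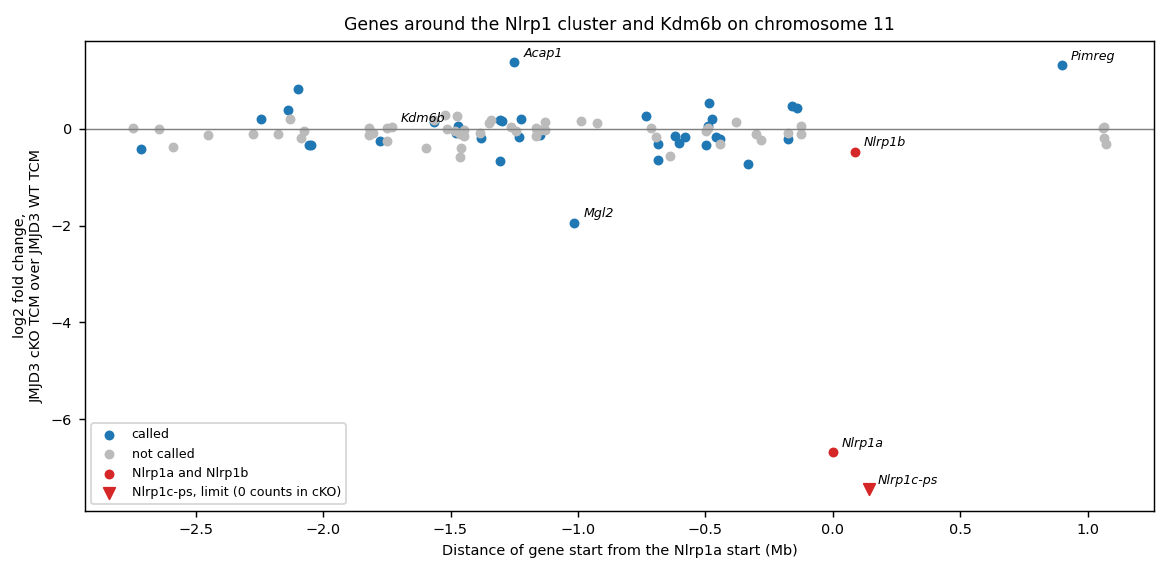
Log2 fold change of JMJD3 cKO TCM over JMJD3 WT TCM (vertical axis) by distance of the gene start from the Nlrp1a start in Mb, for genes tested between Kdm6b and the Nlrp1 cluster and 1 Mb beyond. Nlrp1a is drawn at its count ratio and Nlrp1c-ps (triangle) at the limit that 0 counts allow, both far below the other genes, of which Mgl2 is the lowest.

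Casp4 (chromosome 9, 5308828 to 5336783) was at 130, 129 and 134 CPM in JMJD3 WT TCM and at 79.9, 83.5 and 69.5 CPM in JMJD3 cKO TCM (-0.75, SE 0.05, adjusted p = 2.11e-14). Casp1, its neighbour at 5298517 to 5307265, was at 209, 201 and 209 CPM and at 157 CPM in each library labelled JMJD3 cKO (-0.39, SE 0.03, adjusted p = 1.66e-13). Gsdmd (chromosome 15, 75862327 to 75867408) was at 186, 178 and 195 CPM and at 152, 147 and 144 CPM (-0.33, SE 0.04, adjusted p = 2.23e-10). These caspases and the substrate they share were lower in every library labelled JMJD3 cKO than in any control library. Lack of overlap was not particular to them, as it held for 7 of the 8 genes not chosen for this comparison. Its share among all genes was not counted. Aim2 moved from 69.3 ± 3.52 to 59.9 ± 1.47 CPM (-0.21, SE 0.05, adjusted p = 0.000473). Nlrp3 was at 54.5, 49.5 and 57.1 CPM and at 65.3, 61.4 and 63.7 CPM (0.24, SE 0.05, adjusted p = 0.000144), higher in every library labelled JMJD3 cKO. Nlrc4 (-0.13, 95% interval -0.30 to 0.04, adjusted p = 0.253) and Pycard (0.10, 95% interval 0.002 to 0.19, adjusted p = 0.109) were not called, although the Pycard groups did not overlap.

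Il1b went from 7.35 to 3.08 CPM (-1.26, adjusted p = 1.07e-08), Il18 from 30.5 to 21.4 CPM (-0.51), and Il1a, at 0.763 to 1.86 and 0.782 to 0.962 CPM, had overlapping groups and was not called. Of the 8 cytokine and receptor genes that passed the filter 4 fell and 1 rose (median -0.49). The background for each list is the 35.1% of all genes called (17.8% lower, 17.3% higher). Il1rn fell most, from 941 to 384 CPM (-1.29), and Il1rap, the shared receptor subunit, rose from 11.5 to 14.1 CPM (0.29). Among the 15 other sensors 12 fell and 1 rose (median -0.40). Gbp5 (158 to 71.2 CPM, -1.15) and Gbp2 (708 to 325 CPM, -1.12), interferon-inducible GTPases of the guanylate-binding family, fell, and Nlrx1, a mitochondrial NLR protein, rose with overlapping groups (0.19, adjusted p = 0.0416). Of the 10 other death effectors 3 fell and 1 rose (median 0.00), a share close to that of all genes. Mlkl was at 104 and 81.4 CPM (-0.34), Casp8 at 157 and 131 CPM (-0.27) and Gsdme at 32.6 and 36.5 CPM (0.17). Of 19 regulators 13 fell and 1 rose (median -0.16), led by the interferon-response factor Irf1 (236 to 160 CPM, -0.55) and Pstpip1, a partner of pyrin (372 to 269 CPM, -0.46). The neutrophil marker sum was higher, and the macrophage and dendritic sums lower, in the libraries labelled JMJD3 cKO than in their controls. Single genes carried the lower sums, Lyz2 (7424 to 4582 CPM) and Xcr1 (7.87 to 3.21 CPM). Of the 8 macrophage markers 5 were called lower and 3 higher (Adgre1, Csf1r and Itgam). The dendritic markers Flt3, Zbtb46, Siglech and Cd209a had higher means, each at most 0.300 CPM.

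**Figure D5:**
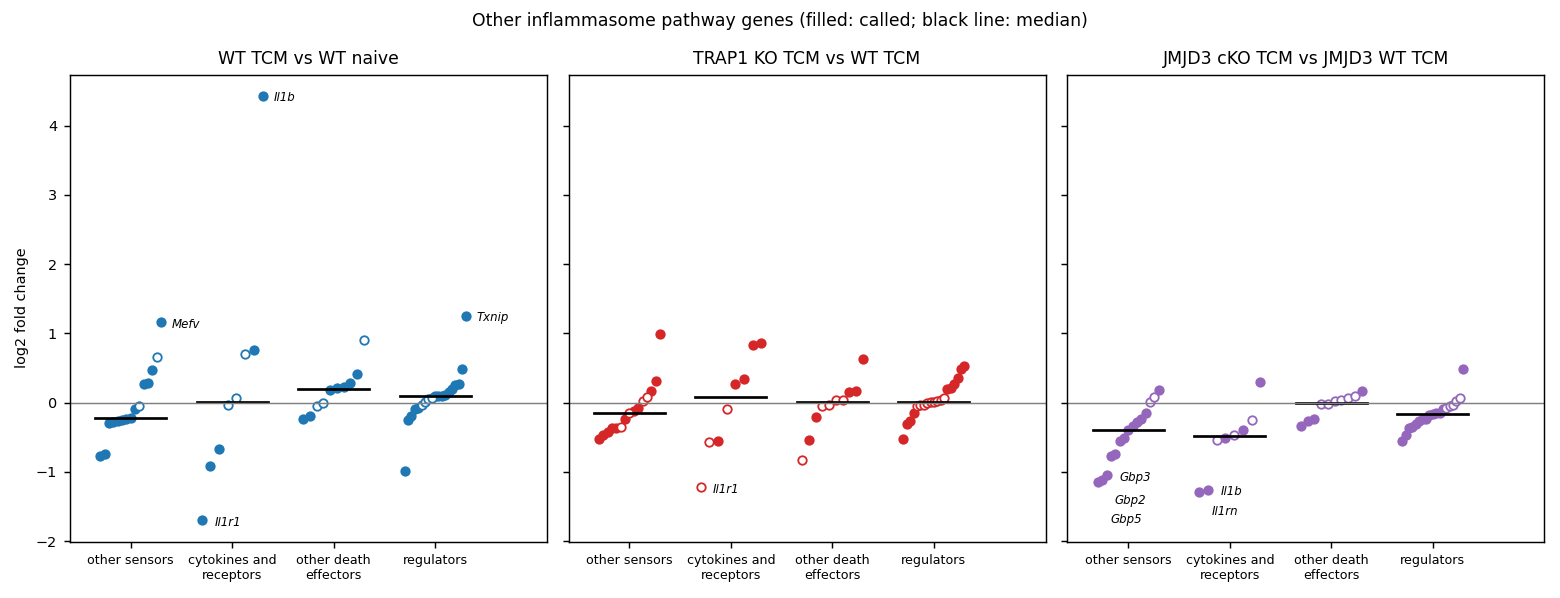
Log2 fold changes (vertical axis) of the other pathway genes in 4 lists, 1 panel per comparison, with filled points for called genes and a black line for the list median. Il1b lies at 4.43 with conditioned medium, and the medians of the other sensors are -0.23, -0.14 and -0.40 from left to right.

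The genotype effects were compared by testing their difference, the TRAP1 effect minus the JMJD3 effect, in 1 fit of all 16 libraries, where 37.9% of 14545 genes were called. Of the 8 genes tested 6 differed, 4 with a higher value (18.4% of all genes) and 2 with a lower value (19.5%). The largest difference was that of Casp4 (0.86, SE 0.07, adjusted p = 1.95e-16), lower in the libraries labelled JMJD3 cKO and not called in the TRAP1 knockout. Gsdmd differed likewise (0.27, SE 0.05, adjusted p = 7.11e-07), called lower in the JMJD3 comparison and not called in the TRAP1 comparison. Casp1 fell in both and further in the JMJD3 comparison (0.16, SE 0.05, adjusted p = 0.00522), and the difference of Casp1 missed the threshold without WT TCM replicate 1 (adjusted p = 0.0507). Nlrp1b fell further without TRAP1 (-0.44, SE 0.07, adjusted p = 6.53e-07). Nlrc4 (0.49, adjusted p = 5.1e-05) and Nlrp3 (-0.22, adjusted p = 0.000572) differed as well. The effects on Aim2 (-0.09, 95% interval -0.22 to 0.04, adjusted p = 0.284) and Pycard (-0.11, 95% interval -0.23 to 0.01, adjusted p = 0.155) were not called different.

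The wild-type sets differed in the same medium, which bears on every level set across them. In JMJD3 WT TCM against WT TCM 61.3% of 14545 genes were called (30.0% higher, 31.3% lower), and of the 8 genes tested 4 were higher and 2 lower. Casp4 was 3.96-fold higher in the JMJD3 line (log2 fold change 1.99, SE 0.05, adjusted p = 2.67e-43), Casp1 2.44-fold (1.29, adjusted p = 2.7e-54), Gsdmd 1.79-fold (0.84, adjusted p = 2.71e-40) and Aim2 1.54-fold (0.62, adjusted p = 4.88e-21). Nlrp3 (-1.25, adjusted p = 2.71e-47) and Nlrp1b (-0.78, adjusted p = 7.69e-25) were lower there. Nlrp3 in JMJD3 WT TCM, at 53.7 ± 3.85 CPM, overlapped WT naive at 51.9 ± 0.872 CPM. Nlrc4 (-0.16, adjusted p = 0.0751) and Pycard (-0.09, adjusted p = 0.0909) were not called over all libraries, and passed without JMJD3 WT TCM replicate 3 (0.0342) and without WT TCM replicate 3 (0.0429) respectively. Nlrp1a and Nlrp1c-ps, not tested, were at 5.12 ± 0.490 and 8.69 ± 1.49 CPM in JMJD3 WT TCM against 16.1 ± 1.65 and 28.3 ± 1.83 CPM in WT TCM. Of the 15 other sensors 12 were higher and 1 lower, including Gbp2 at 708 against 51.2 CPM (3.79) and Gbp3 at 268 against 19.7 CPM (3.77). The line, any difference in the sex of the cells, and the set of libraries cannot be told apart.

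The order of the groups differed between genes. Nlrp1b ran from WT naive through WT TCM, JMJD3 WT TCM and TRAP1 KO TCM to JMJD3 cKO TCM with no overlap between neighbours. Nlrp1a and Nlrp1c-ps ran from the wild-type groups of the first set, which overlapped each other, through TRAP1 KO TCM and JMJD3 WT TCM to JMJD3 cKO TCM. For Nlrp1c-ps the TRAP1 KO TCM and JMJD3 WT TCM libraries overlapped. Pycard was the flattest gene, from 54.3 ± 2.18 CPM in WT naive to 63.2 ± 1.25 CPM in JMJD3 cKO TCM, and only WT naive stood clear of the group next to it. Casp1 showed no overlap between neighbours from JMJD3 WT TCM through JMJD3 cKO TCM, WT naive and WT TCM to TRAP1 KO TCM.

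Across the 16 libraries the patterns of single genes were compared by Pearson's r of log2 CPM against 9369 genes whose mean reached 5 CPM, as a description, since the libraries fall into 5 groups and the sets differ in most genes. For Nlrp1a the highest values were those of Nlrp1c-ps (r = 0.991), Chd3 (0.888) and Siglece (0.871), and they include the JMJD3 cKO TCM libraries by which Nlrp1a and Nlrp1c-ps were chosen. Over the 13 libraries without that group, r was 0.922 between Nlrp1a and Nlrp1c-ps, 0.948 between Nlrp1b and Nlrp1c-ps, and 0.822 between Nlrp1a and Nlrp1b. The chaperone genes Calr (0.985) and Hspa5 (0.983) of the endoplasmic reticulum, and Ppfibp2 (0.966), were most like Nlrp1b. Nlrp3 resembled St6gal1 (0.991), Slc9a9 (0.988) and Svil (0.987). Casp1 resembled Dock10 (0.998) and Actr3 (0.997). Casp4 resembled Selplg (0.994), Ddx58, which encodes the RNA sensor RIG-I (0.994), and Tap1, a peptide transporter of antigen presentation (0.993). Gsdmd resembled the interferon-inducible Ifi203 (0.996), Tmem67 and Etnk1 (both 0.995). Within the 10 genes, Casp4 and Gsdmd had r = 0.986, Casp1 and Aim2 0.962, and Casp1 and Nlrp3 -0.817.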

How the data were processed

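RNA-seq libraries were made with a Ribo-Zero and a TruSeq Stranded kit and run on an Illumina HiSeq, per the labels' protocols. The authors deposited 1 table of counts per library (16 libraries), whole numbers for 54532 Ensembl identifiers, used here as raw counts. Bowtie2, HISAT, RSEM, StringTie and the build mm10 are named in the submitters' processing notes. The sources used here do not give the counting tool, annotation or strand setting, so reads of overlapping or near-identical genes may be split in unknown ways. Symbols and positions came from GENCODE M21 (GRCm38), which held 54495 identifiers.

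Tests on the counts used edgeR 4.0.16 with R 4.3.3 (TMM scaling, filterByExpr at a minimum of 10 counts, robust quasi-likelihood fit, Benjamini-Hochberg adjustment over all genes tested, call at an adjusted p under 0.05). The medium and TRAP1 comparisons shared a fit of 10 libraries, the JMJD3 comparison used its own 6, and the others all 16. SEs were taken from the fold change and its F statistic. CPM used scaling over all 16 libraries. Intervals are 95%. The procedure was tested on simulated data.

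The members and gene lists were chosen with earlier results of these data known. Named were the 10 members, Il1b, Il18, Il1a, the targeted genes, up to 2 called genes per list, direction and comparison with the largest change and a mean of at least 5 CPM, the 3 genes most like a member (of which 1 is not reported here), and the 3 largest changes near the Nlrp1 cluster. The 6 genes nearest the cluster, Gm45205 and the member pairs with an r were named after their values were seen. Alternatives were DESeq2 1.42.0, its size factors, no filter, a minimum of 50 counts, other sets of libraries in the fit, a replicate block, and leaving out each library. Same-numbered libraries did not deviate together (r from -0.0274 to 0.0149 over 12 pairs), so numbers were not taken as pairs. Replicates differed by more than sampling noise (chi-square per degree of freedom from 1.74 to 2.72). Few counts limit precision for Nlrp1a, Nlrp1c-ps and Il1a.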

Additional observations from a re-analysis of the deposited data

How the results depend on the processing

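Of 554 values of single members under the alternatives, 542 kept their direction and their side of the threshold, 9 changed side and 0 called values reversed. The other 3 were of Pycard in the TRAP1 comparison, not called throughout, whose log2 fold change turned from -0.01 to 0.0213 without WT TCM replicate 1, 0.00445 without TRAP1 KO TCM replicate 4 and 0.00536 with the replicate block. The 9 were those of Casp4 with conditioned medium (5) and in the TRAP1 comparison (1), of Nlrc4 (1) and Pycard (1) between the wild-type sets, and of Casp1 in the difference of the genotype effects (1), with their adjusted p given in the report. On leaving out single libraries, the number of members higher in TRAP1 KO TCM was 1 to 2, with 2 reached without TRAP1 KO TCM replicate 1. The counts of members and of all genes called were within 1.5 times their reported values under the other alternatives run. Adjusted p of Casp4 with conditioned medium ranged from 0.0174 to 0.156.

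Same-numbered libraries were not shown to be pairs. With the replicate number as a block, 5927 genes were called with conditioned medium, 5577 in the TRAP1 comparison, 4579 in the JMJD3 comparison and 8886 between the wild-type sets, and 44 of 44 member values kept their call. Depth limits Nlrp1c-ps and Nlrp1a in JMJD3 cKO TCM, where 3 counts over the group equal 0.0501 CPM. The r values of the Nlrp1 genes without JMJD3 cKO TCM were added after seeing the data.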
